A study of Mus musculus with 28 samples.

Results

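The genes described here lie in 1 segment of mouse chromosome 4, inside a stretch of it that held no acetylation peak in 1 of 3 groups of cells resistant to PD-1 blockade, the group Res. The members are Mtap, Cdkn2a, Cdkn2b, Ifnb1, Focad, Mllt3 and Hacd4, 7 of the 44 protein-coding genes of the segment and of 21887 protein-coding genes in all. They were selected on the presence of peaks and tags in the Res and the sensitive libraries, as genes with no peak in Res, so the contrast of Res with sensitive cells is a description and carries no test. The sensitive libraries also enter the contrast of the group Res_Ctrl with sensitive cells, so its tests are not independent of this choice. A gene was given every peak within its annotated ends or 1 kb of them.

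Histone H3 acetylated at lysine 27 (H3K27ac, a mark of promoters and enhancers in use) or at lysine 9 (H3K9ac, which sits chiefly at promoters in use) was mapped by chromatin immunoprecipitation and sequencing in cultured mouse lung adenocarcinoma cells. The group Sen is a PD-1-sensitive line of genotype Wild-type. Res is a PD-1-resistant line, also Wild-type, which the label describes as treated with PD-1 inhibitors. Res_Ctrl is a resistant line of genotype Control, and Res_shFabp7 a resistant line with an shFabp7 knockdown, that is, a short hairpin RNA against Fabp7. The labels do not say whether Res_Ctrl and Res_shFabp7 were made from the Res culture that was profiled, and give no clone, passage or treatment for them. Each mark has 3 biological replicates per group. The labels do not say whether these came from separate cultures, so p-values measure the spread between these libraries only. PD-1 is the checkpoint receptor of T cells, and Fabp7 encodes a fatty acid binding protein.

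Per library there were between 11771 and 28934 peaks, with 2.24 to 11.5 M (1 M is 1000000) tags, that is, reads counted in peaks. The lowest, Sen replicate 1 of H3K27ac, had 2.24 M tags against 5.91 and 5.30 M in the other Sen libraries of that mark, and counts for the segment that change without it are given both ways. Fabp7 had 0 peaks within 1 kb in 24 of 24 libraries, so the lists do not check the knockdown. Of 9 markers of lung epithelium and adenocarcinoma 7 had a peak in all 24 libraries, while Epcam had one in 5 and Nkx2-1, a lung lineage factor, in 0. Of 5 immune markers Ptprc and Cd3e had 0 peaks, and Cd68, Cd14 and Cd79a had one in all 24. Of 4 fibroblast and endothelial markers Pecam1 had 0, while Pdgfra had a peak in 5 libraries, Cdh5 in 16 and Col1a1 in 19. The part of other cell types in the results was not tested.

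Cdkn2a encodes 2 unrelated proteins from separate first exons. The p16Ink4a protein inhibits the kinases Cdk4 and Cdk6 and so keeps the retinoblastoma protein active, and p19Arf blocks Mdm2 and so protects p53. Cdkn2b next to it encodes p15Ink4b, a further inhibitor of the same kinases. Mtap, on the other side, encodes methylthioadenosine phosphorylase, the enzyme that starts methionine salvage from the by-product of polyamine synthesis. Ifnb1, which encodes interferon beta, stands at one end of the cluster of type I interferon genes. In human tumours, lung cancer included, this block is a frequent target of deletion, and MTAP and interferon genes are often lost together with CDKN2A. Acetylated histones mark DNA that is present and in open chromatin, so a list of peaks cannot tell a deleted gene from a silent one.

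The 250 bases before the first base of the genes on which the results turn are shown to place the peaks and to compare their content of CG pairs, the sites of DNA methylation, which are printed in capitals. They come from RefSeq promoters of build GRCm38.p6, which is mm10, and run 5′ to 3′ on the strand of the gene. In the Ifnb1 promoter the capitals instead mark a match to an NF-kB motif, whose letters are those in capitals and which was searched on both strands. NF-kB is one of the factors known to switch this gene on.
Mtap, chr4:89137120-89137369, plus strand: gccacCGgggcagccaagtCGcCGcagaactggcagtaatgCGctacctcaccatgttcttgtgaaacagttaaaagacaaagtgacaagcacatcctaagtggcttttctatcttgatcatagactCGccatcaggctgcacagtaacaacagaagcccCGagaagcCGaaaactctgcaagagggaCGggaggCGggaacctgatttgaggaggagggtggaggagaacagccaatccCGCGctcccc
Cdkn2a, p19Arf start, chr4:89294620-89294869, minus strand: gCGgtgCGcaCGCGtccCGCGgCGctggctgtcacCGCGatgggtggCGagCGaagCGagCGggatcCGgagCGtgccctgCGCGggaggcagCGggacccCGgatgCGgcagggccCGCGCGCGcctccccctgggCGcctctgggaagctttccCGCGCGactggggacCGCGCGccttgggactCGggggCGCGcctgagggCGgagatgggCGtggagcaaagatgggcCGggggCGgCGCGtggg
Cdkn2a, p16Ink4a start, chr4:89282193-89282442, minus strand: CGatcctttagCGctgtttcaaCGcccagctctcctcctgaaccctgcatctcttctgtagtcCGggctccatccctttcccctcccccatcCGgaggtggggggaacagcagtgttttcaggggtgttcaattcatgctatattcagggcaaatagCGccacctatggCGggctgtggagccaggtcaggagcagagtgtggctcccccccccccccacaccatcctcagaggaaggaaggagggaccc
Cdkn2b, chr4:89311033-89311282, minus strand: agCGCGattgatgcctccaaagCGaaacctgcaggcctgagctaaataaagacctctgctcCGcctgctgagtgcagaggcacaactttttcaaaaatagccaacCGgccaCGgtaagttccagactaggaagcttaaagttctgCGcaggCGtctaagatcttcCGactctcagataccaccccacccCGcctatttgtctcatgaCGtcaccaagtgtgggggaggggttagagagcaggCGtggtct
Ifnb1, chr4:88522795-88523044, minus strand: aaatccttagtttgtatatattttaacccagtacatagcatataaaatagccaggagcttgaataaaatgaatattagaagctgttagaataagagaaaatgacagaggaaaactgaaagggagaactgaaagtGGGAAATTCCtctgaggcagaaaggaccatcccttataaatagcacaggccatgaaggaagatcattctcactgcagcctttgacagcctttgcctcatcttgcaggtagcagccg

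The p19Arf promoter of Cdkn2a holds 40 CG pairs in 250 bases, more than 98.7% of the 32851 promoters in the table, whose median is 6. The p16Ink4a promoter holds 7, Cdkn2b 12 and Mtap 11. Mllt3 has 23 at its upstream start, Focad 15 and Hacd4 8. The Ifnb1 promoter holds 1. Its NF-kB match, found in 0.0974% of all promoters, begins 116 bases before the first base, and the promoter also holds TATAAA, found in 12.4% on either strand. A match is a description of letters and shows no binding.

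In Res the stretch without a peak ran from the last peak end at 87555498 to the next peak start at 93334314 (mm10), 5.78 Mb of chromosome 4. The last peak before it ended at 87554707, 87555498 and 87554192 in Res replicates 1 to 3 of H3K27ac, and the first after it started at 93334314, 93334359 and 93334435. For H3K9ac alone the stretch ran from 87433756 to 93334329. All 7 members lie inside it. Each of them therefore had 0 tags in peaks in 6 of 6 Res libraries.

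The edges are placed by the peaks of Res outside them. Inside the stretch the Sen peaks ran from 87982415 to 89525328, so no Sen peak lay close to either edge on its inner side. The Res_Ctrl peaks inside it ran from 87982901 to 89529822. Those of Res_shFabp7 ran from 87849547 to 89529942, apart from 2 H3K27ac peaks of replicate 3, which started at 92554296 and 92777672. The rest of the stretch, most of its length, held no peak in any group. Its full length is therefore no measure of what Res alone lacked. On the near side Res had an H3K27ac peak of 286, 211 and 221 tags starting near 87532138, in which Sen had 41, 81 and 67 tags. The last Res peak before the stretch, which started at 87553230 in replicate 3, held 81, 117 and 55 tags in replicates 1 to 3. Beyond the far edge the first peak in Res lay over Tusc1 (93334148 to 93335511), an intronless gene, with 252, 225 and 166 H3K27ac tags and 187, 244 and 247 H3K9ac tags. The first gene with a peak before the stretch was Rps6 (86854099 to 86857367), a ribosomal protein gene, with 540, 393 and 335 H3K27ac tags in Res and 155, 301 and 259 in Sen. The segment is therefore flanked on both sides by peaks that Res carried in every H3K27ac library.

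**Figure D1:**
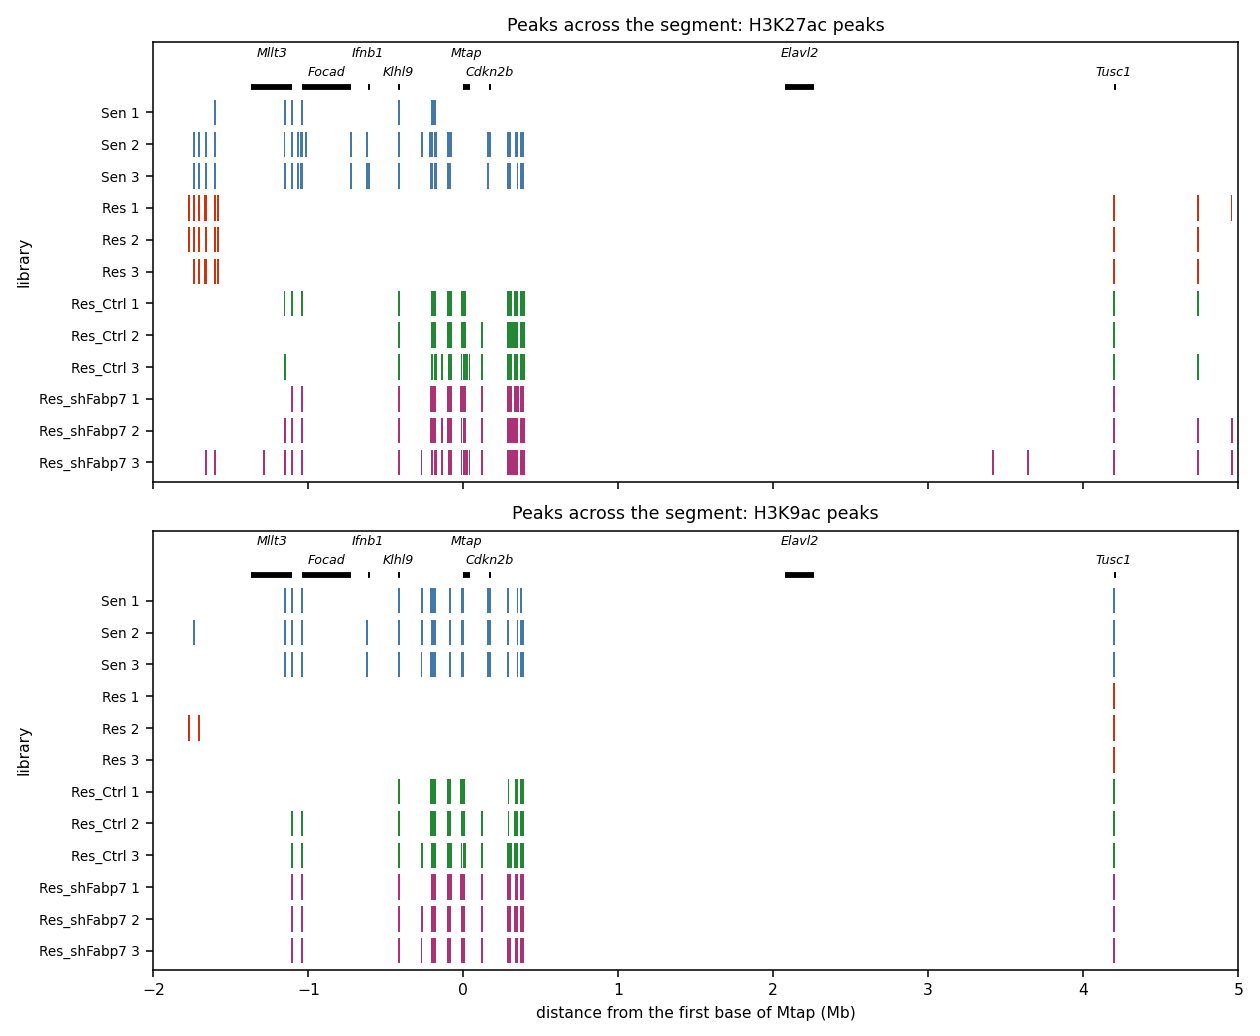
Peaks of each library across the segment, by distance from the first base of Mtap (Mb), with H3K27ac above and H3K9ac below. Each row is 1 library and each coloured block 1 peak drawn at a minimum width so that it can be seen. Black bars are genes, and Cdkn2a, next to Cdkn2b, is hidden at this scale. The Res rows are blank up to the peak at Tusc1, apart from peaks at the left edge, of H3K27ac and, in replicate 2, of H3K9ac. The other rows have blocks inside this span, which end at 88957385, before Mtap, in Sen replicate 1 of H3K27ac.

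By length the Res stretch was among the longest but not the longest, being the 11th of 23283 stretches without a peak in the 6 Res libraries. The choice of members used its peaks in Sen, so its Sen counts are a description. It contained 16 regions with an H3K9ac peak in all 3 Sen libraries, and the next stretch contained 6. For H3K27ac it held 6 regions of Sen, as many as a stretch of chromosome 13 (98029308 to 98205411), and without the shallow Sen replicate 1 it held 21, against 7 in the next stretch. Res_Ctrl had 17 H3K27ac and 15 H3K9ac regions inside it, against 8 and 2 in the next stretch, and Res_shFabp7 had 19 and 18 against 8 and 4.

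**Figure D2:**
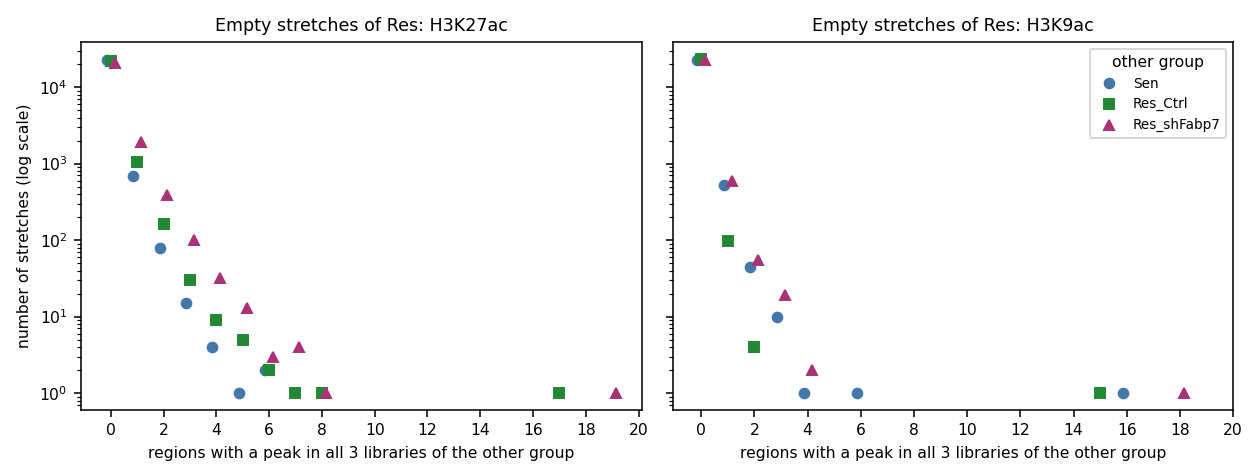
Number of stretches without a peak in Res (log scale) by how many regions of another group they contain, H3K27ac at left and H3K9ac at right. Points are shifted sideways slightly to separate the groups. The points at 15 to 19 regions are the chromosome 4 segment, as is 1 of the 2 stretches with 6 Sen regions for H3K27ac.

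Among the members with a peak in all 3 Sen libraries, all lacked one in all 3 Res libraries: Mllt3 and Focad for H3K27ac (2 of 2), and Mllt3, Focad, Mtap, Cdkn2a and Cdkn2b for H3K9ac (5 of 5). Of all genes with a peak in all 3 Sen libraries, 1.75% of 10216 had none in Res for H3K27ac and 3.69% of 11336 for H3K9ac. The rule that chose the members used this contrast, so nothing is read from the counts. Without the shallow Sen replicate 1 the H3K27ac members were 4, Hacd4 and Cdkn2a being added. With peaks of a caller score of at least 100 only Mllt3 was left.

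Res_Ctrl and Res_shFabp7, called the Control and knockdown groups below, did not share the empty stretch of Res. Both had peaks at Mtap, Mllt3 and Focad, and both lacked peaks at Cdkn2a and Cdkn2b. Whether peaks that differ between resistant groups reflect different DNA, different acetylation or cells of a different origin cannot be told apart from the lists, and the 4 input libraries were not analysed here. Since these are bulk libraries, fewer cells with a mark and less of the mark per cell cannot be told apart either.

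Mtap (89137370 to 89181090), the methionine salvage enzyme, had peaks of both marks in every library of the Control and knockdown groups. In Res_Ctrl its peaks held 623, 545 and 776 H3K27ac tags, and in Res_shFabp7 409, 519 and 1154. In Sen and in Res all 6 libraries of that mark had 0. Its H3K9ac tags were 115, 373 and 403 in Sen and 0 in each Res library. The Control and knockdown groups had 526, 554 and 935 (Res_Ctrl) and 636, 876 and 743 (Res_shFabp7). H3K9ac therefore marked Mtap in every group but Res, whereas H3K27ac marked it in the Control and knockdown groups.

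Scaled to 1000000 tags in all peaks of the library, Mtap H3K9ac was 33.0 ± 4.9 in Sen, 193 ± 16.9 in Res_Ctrl and 127 ± 4.86 in Res_shFabp7 (SD, n = 3). For H3K27ac the scaled level was 149 ± 16.5 in Res_Ctrl and 87.4 ± 19.7 in Res_shFabp7 (SD, n = 3). Mtap was 1 member of 1 with an H3K27ac peak in all 3 Res_Ctrl libraries, and it had none in the 3 Sen libraries. Of all 10683 genes with such a Res_Ctrl peak, 1.09% had none in Sen. Of the 3 members with an H3K27ac peak in all 3 Res_shFabp7 libraries 1, Mtap, had none in Sen, where the share over all 11743 such genes was 3.06%.

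The peak over the first base of Mtap also differed in length. For H3K9ac it was 1974, 2588 and 2508 bases long in Sen, 6079, 5638 and 7014 in Res_Ctrl, and 5868, 6042 and 5680 in Res_shFabp7. The peak crossed the first base in all these libraries and ended between 89138526 and 89139184 in Sen, and between 89142119 and 89143214 in the Control and knockdown groups. The tags per kb of this peak were 58.3, 144 and 161 in Sen and 86.5, 98.3 and 118 in Res_Ctrl, which overlap and are not scaled for library depth. All of the called length counts as signal here, so a wider call adds tags.

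Tested over the regions with a peak in all 6 libraries, the Mtap promoter region (89136201 to 89143214) had more H3K9ac in Res_Ctrl than in Sen. Its normalised level was 199 ± 12.1 CPM (edgeR's counts per 1000000) against 37.1 ± 6.04 (SD, n = 3). The difference was 2.38 on the log2 scale (SE 0.09, edgeR quasi-likelihood test, adjusted p = 2e-08), a 5.19-fold higher level. It was 1.02 per called base (adjusted p = 6.6e-11), where the median of all tested regions moved from 0 to 0.22. The H3K27ac region of Mtap could not be tested, since Sen had no peak in it and the lists give no count for an uncalled region. The Sen libraries were also used to choose the members, so the H3K9ac test is not independent of that choice.

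Res_shFabp7 had less of both marks at Mtap than the Control group. For H3K27ac the promoter region (89136205 to 89142877) fell by 0.69 on the log2 scale (SE 0.10, edgeR adjusted p = 0.0062), from 121 ± 5.58 to 74.7 ± 7.45 CPM (SD, n = 3). For H3K9ac it fell by 0.45 (SE 0.06, edgeR adjusted p = 0.00063), from 196 ± 12.2 to 144 ± 3.21 (SD, n = 3). Both passed in all 13 alternatives. Per called base the differences were -0.53 and -0.36, where the medians of all regions moved to -0.27 and -0.21. A second H3K27ac region inside Mtap (89144732 to 89147415) had a difference of -0.76 and did not pass (edgeR adjusted p = 0.11).

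Cdkn2a (89274473 to 89294619) had peaks in Sen and in no other group. Its H3K9ac tags in Sen were 310, 958 and 1126, and its H3K27ac tags 0, 127 and 117, the 0 being the shallow replicate 1. The other 18 libraries had 0. Cdkn2b (89306289 to 89311032) had 121, 363 and 461 H3K9ac tags in Sen, an H3K27ac peak of 80 tags in Sen replicate 2 alone, and 0 in the other groups. Scaled H3K9ac in Sen was 88.4 ± 12.8 for Cdkn2a and 34.8 ± 5.61 for Cdkn2b (SD, n = 3).

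The Cdkn2a peaks of Sen lay over the CG-rich p19Arf start printed above. They covered its first base, 89294619, in 3 of 3 H3K9ac and 2 of 3 H3K27ac libraries, and no peak of any of the 24 libraries covered the p16Ink4a first base, 89282192. The same peaks cover the first base of Gm12610, 89295180, a long non-coding RNA gene with the synonym ANRIL that starts beside Cdkn2a, so they cannot be given to 1 of the 2 genes. The H3K9ac peaks were 3400, 4970 and 5094 bases long.

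In the Control and knockdown groups the stretch without a peak around Cdkn2a and Cdkn2b was short and alike in both. It ran from 89258043 to 89426162 in Res_Ctrl and from 89258193 to 89425720 in Res_shFabp7, 168.1 and 167.5 kb over both marks. Of the 5 members with an H3K9ac peak in all 3 Sen libraries, Cdkn2a and Cdkn2b had none in Res_Ctrl and none in Res_shFabp7, 2 of 5 each time. The share over all 11336 genes was 1.60% for Res_Ctrl and 0.600% for Res_shFabp7. Among 30231 stretches without a peak in both Control and knockdown groups, this one and a stretch of chromosome 12 (25995238 to 27491514) contained the most Sen H3K9ac regions, 2 each.

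The near edge of that stretch was a small peak between Mtap and Cdkn2a that Sen did not have. It was called in 2 of 3 Res_Ctrl and 3 of 3 Res_shFabp7 libraries for each mark, and in 0 Sen or Res libraries. In Res_shFabp7 it held 96, 154 and 208 H3K27ac tags and 108, 153 and 125 H3K9ac tags. In the Res_Ctrl libraries that had it, replicates 2 and 3, it held 98 and 106 H3K27ac tags and 76 and 102 H3K9ac tags.

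**Figure D3:**
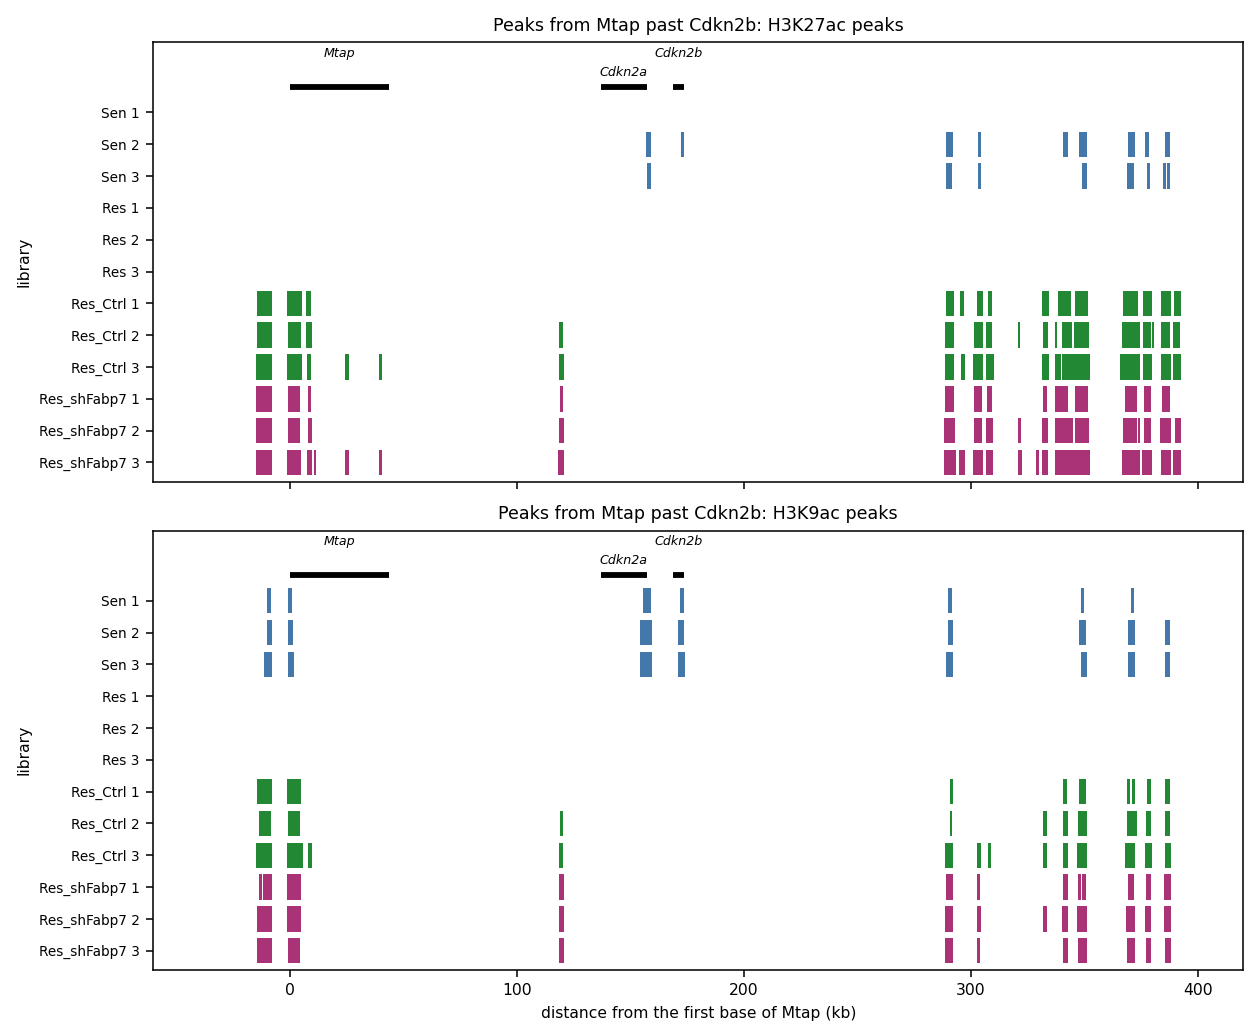
Peaks of each library from before Mtap to past Cdkn2b, by distance from the first base of Mtap (kb), with H3K27ac above and H3K9ac below. Each row is 1 library, and black bars are the genes. All 3 H3K9ac rows of Sen have blocks over Cdkn2a and Cdkn2b, as do 2 of its H3K27ac rows over Cdkn2a and 1 over Cdkn2b, where the rows of the other groups are blank, and the Res_Ctrl and Res_shFabp7 rows have wide blocks at Mtap.

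Ifnb1 (88522025 to 88522794) had no peak in any of the 24 libraries. Neither did any of the 31 genes and gene models of the interferon cluster in the segment. The absence of peaks at Ifnb1 in Res is thus shared with every other group. The nearest peaks were in Sen, where replicates 2 and 3 had H3K9ac peaks of 170 and 221 tags and H3K27ac peaks of 122 and 104 tags, the H3K27ac peak of replicate 2 ending 5943 bases from the first base of Ifnb1. Those peaks were called in no other group.

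Mllt3 (87769925 to 88033407), which encodes a reader of acetylated histones in the super elongation complex, had peaks in 3 groups. Its H3K9ac tags were 415, 1066 and 1266 in Sen, 0, 142 and 250 in Res_Ctrl, and 175, 262 and 259 in Res_shFabp7. Its H3K27ac tags were 143, 500 and 438 in Sen, 119, 0 and 37 in Res_Ctrl, and 97, 313 and 477 in Res_shFabp7. A 0 is entered for an uncalled peak and enters the means. The Res_Ctrl libraries with 0 had the fewest tags in peaks of that group for their mark. These were replicate 1 of H3K9ac with 2.57 M and replicate 2 of H3K27ac with 3.70 M. After the same scaling, H3K9ac was 104 ± 5.44 in Sen, 32.8 ± 28.8 in Res_Ctrl and 38.9 ± 4.56 in Res_shFabp7 (SD, n = 3). Scaled H3K27ac was 77.0 ± 11.5 in Sen, 11.2 ± 13.1 in Res_Ctrl and 36.0 ± 14.7 in Res_shFabp7 (SD, n = 3). Without Sen replicate 1 the Sen mean was 83.7 ± 1.36 (SD, n = 2). No Mllt3 region had a peak in all 6 libraries of Res_Ctrl and Sen, so the difference has no test.

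Focad (88094620 to 88411011), which encodes focadhesin, showed the same order. Its H3K9ac tags were 182, 386 and 399 in Sen, 0, 72 and 97 in Res_Ctrl, and 105, 176 and 106 in Res_shFabp7. Scaled H3K9ac was 38.6 ± 4.43, 14.5 ± 12.6 and 21.4 ± 3.2 (SD, n = 3), and scaled H3K27ac 37.8 ± 11.8, 3.73 ± 6.46 and 12.3 ± 0.776, with a Sen mean of 42.6 ± 11.7 (SD, n = 2) without its replicate 1. The Sen mean was the highest for both marks. The Res_Ctrl peaks held 52 to 97 tags where they were called, and 0 is entered for an uncalled peak. In addition, the Control and knockdown groups overlapped for H3K9ac.

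Hacd4 (88407687 to 88438936) encodes a dehydratase of very long chain fatty acid elongation. It had a single H3K27ac peak of 87 tags in Sen replicate 2 and of 74 tags in replicate 3, and 0 in the other 22 libraries. That peak lies inside Hacd4, within 1 kb of the end of Focad, so it was counted for both genes. No peak covered the promoter of Hacd4 in any library.

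**Figure D4:**
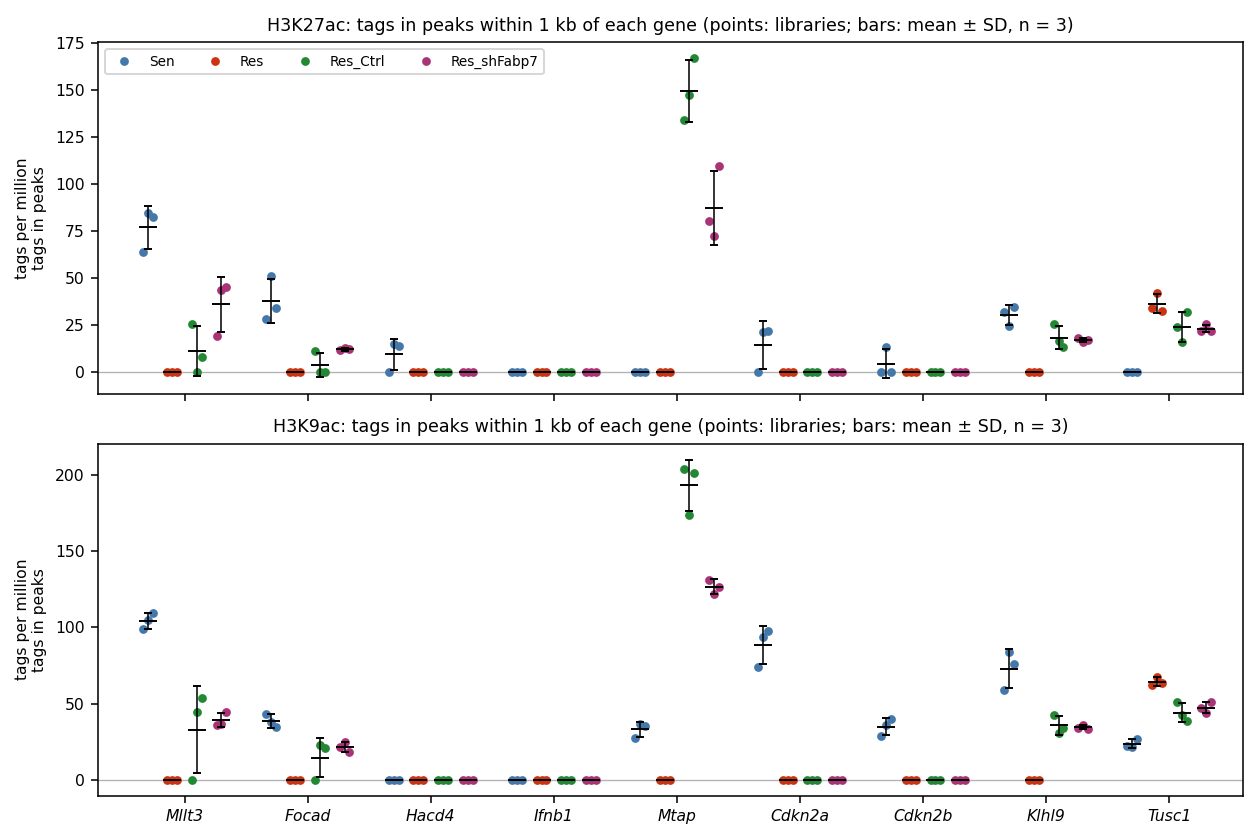
Tags in peaks within 1 kb of each gene, scaled to 1000000 tags in all peaks of the library (vertical axis), H3K27ac above and H3K9ac below. Points are the 3 libraries of a group and bars the mean ± SD. Mtap rises to 149 and 193 in Res_Ctrl, and Cdkn2a and Cdkn2b leave 0 in Sen alone.

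Of the 37 other protein-coding genes of the segment, 2 had a peak in any library. Klhl9 (88718292 to 88722508), an adaptor of a ubiquitin ligase, had 247, 857 and 877 H3K9ac tags in Sen, 109, 97 and 157 in Res_Ctrl, 164, 258 and 195 in Res_shFabp7, and 0 in Res. Its H3K9ac fell by 1.14 on the log2 scale in Res_Ctrl against Sen (SE 0.14, edgeR adjusted p = 9e-05). The call ended per called base, where the difference was -0.06 (adjusted p = 0.75). The peak was 2053, 4530 and 3616 bases long in Sen and 1655, 1357 and 1776 in Res_Ctrl. Tusc1 lies just outside the empty stretch. Its H3K27ac tags were 0 in all 3 Sen libraries, and 112, 60 and 149 in Res_Ctrl. Its H3K9ac rose by 0.81 in Res_Ctrl against Sen (SE 0.13, edgeR adjusted p = 0.00053).

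Most of the acetylation in the segment lay outside protein-coding genes, in long non-coding RNA genes that were named after their values were seen. The H3K9ac peak with the most tags covered the start of Gm49890, the host of the microRNA gene Mir31, whose mature product is shown with its seed, bases 2 to 8, in capitals because the seed sets its targets.
mmu-miR-31-5p, chr4:88910614-88910635, minus strand: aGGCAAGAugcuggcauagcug
The peak over the first base of Gm49890 held 1062, 2849 and 3331 H3K9ac tags in Sen, 963, 1149 and 1767 in Res_Ctrl, and 1394, 1973 and 1680 in Res_shFabp7. It was 10701 to 13105 bases long in Sen, the longest peak of the segment in those libraries, and was absent from Res. Wincr1, a long non-coding RNA gene upstream of Mtap, came next in Sen, with 453, 1257 and 1323 H3K9ac tags. Further blocks lay at Gm34568, between genes, at Gm12602 beside Mtap and over the downstream part of Gm12610. For H3K27ac the Wincr1 peak held more tags than that of Gm49890 in replicates 2 and 3 of Res_Ctrl, 908 and 1270 against 821 and 1149, and of Res_shFabp7, 1443 and 2162 against 1231 and 2035.

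Over all the non-coding and coding regions inside the empty stretch, 10 H3K9ac regions had a peak in all 6 libraries of Res_Ctrl and Sen. Of these, 7 rose and 1 fell in Res_Ctrl, and the median log2 difference was 0.82 against 0 for all 10980 regions tested. The Sen libraries were also used to choose the members, so these counts are not independent of that choice. The counts cover shared regions only, so Mllt3, Focad, Cdkn2a and Cdkn2b are left out. From Mllt3 to Ifna1 scaled H3K9ac was 228 ± 23.4 in Sen and 82.9 ± 35.6 in Res_Ctrl (SD, n = 3). Around Cdkn2a and Cdkn2b it was 123 ± 18.3 and 15.3 ± 13.3. A region starting at 89037660, with H3K9ac peaks in Res_Ctrl and none in Sen, is left out as well. Of all regions 18.8% were called higher and 15.1% lower, so that 55.6% of calls were higher, against 99.7% per called base. The largest rises among the 10 were beside Mtap and over Gm12610: Gm12602 rose by 2.48 (SE 0.16, edgeR adjusted p = 8.2e-07), Wincr1 by 1.03 (SE 0.07, adjusted p = 6.3e-07), and 2 regions over Gm12610 by 1.58 each (adjusted p = 7.5e-05 and 5.4e-05). Gm49890 rose by 0.40 (SE 0.06, adjusted p = 0.00021). Per called base these differences were 1.18 for Gm12602, 0.70 for Wincr1, 0.92 and 0.98 for the Gm12610 regions and 0.32 for Gm49890, where the median of all regions moved to 0.22. For H3K27ac 3 regions could be tested and 0 passed by edgeR's test, and 0 by DESeq2. At an unadjusted p under 0.05 there was 1, Klhl9, at -0.62 (edgeR adjusted p = 0.12). In that comparison 17.1% of all 13130 regions passed in either direction. The shallow Sen replicate 1 decides this count, since it had no peak past 88957385: without it 11 regions could be tested, 8 rose and 0 fell by edgeR, and the median was 1.68, where 21.8% of all 15742 regions passed. The 8 were Wincr1, at 1.68 (adjusted p = 9e-05), 5 regions over Gm12610, at 0.92 to 2.42, and 2 between genes, the higher at 1.87. Per called base the same 8 passed, at 0.51 to 1.15, where the median of all regions was 0.07.

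In Res_shFabp7 against Res_Ctrl the tested regions of the segment were lower wherever they passed. Mllt3 and Focad lacked a peak in some Res_Ctrl libraries for each mark and were not among the tested regions. From Mllt3 to Ifna1 the means went the other way. Scaled H3K27ac there was 65.4 ± 14.4 in Res_shFabp7 and 33.3 ± 25.1 in Res_Ctrl (SD, n = 3). Scaled H3K9ac was 94.7 ± 2.6 and 82.9 ± 35.6. These sums were not tested. For H3K27ac 16 regions inside the empty stretch were tested, all 16 had a difference below 0, and 5 fell, with 0 higher. Their median was -0.44 against 0 for all 16235 regions, of which 2.53% were called lower. For H3K9ac 14 were tested and 11 fell, with 0 higher. The median was -0.42 against 0.01, and 5.18% of all 11152 regions were called lower. Per called base the share of calls that were higher over all regions was 0.0137% in place of 34.3% for H3K27ac, and 0.0682% in place of 35.4% for H3K9ac. Neighbouring regions share libraries and may share signal, so they are not independent.

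The regions that fell included Gm12602 beside Mtap, with differences of -0.61 for H3K27ac (SE 0.10, edgeR adjusted p = 0.011) and -0.78 for H3K9ac (SE 0.08, adjusted p = 0.00024). The H3K27ac call at Gm12602 was lost without Res_shFabp7 replicate 2. Gm49890 fell by 0.38 for H3K9ac (SE 0.04, adjusted p = 0.00025). A region of Gm12610 (89468695 to 89471881) fell by 0.98 for H3K27ac (SE 0.17, adjusted p = 0.014), a call that was lost without Res_Ctrl replicate 3 or Res_shFabp7 replicate 3. Klhl9 had differences of -0.02 and 0.06 and Tusc1 of 0.01 and 0.22, none of which passed. The values of Res_Ctrl enter both comparisons, so the rise at Mtap in one and the fall in the other are not independent.

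For H3K27ac the deviations of same-numbered replicates of these 2 groups correlated at 0.36, 0.13 and 0.234. The highest correlations with a different number were -0.142, 0.155 and 0.155, so pair 2 did not stand out. With the replicate number as a block the whole comparison called 1441 regions in place of 626. Of the segment's regions 6 more passed with the block, all lower, among them Wincr1 at -0.35 (adjusted p = 0.0081) and Gm49890 at -0.21 (adjusted p = 0.04).

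**Figure D5:**
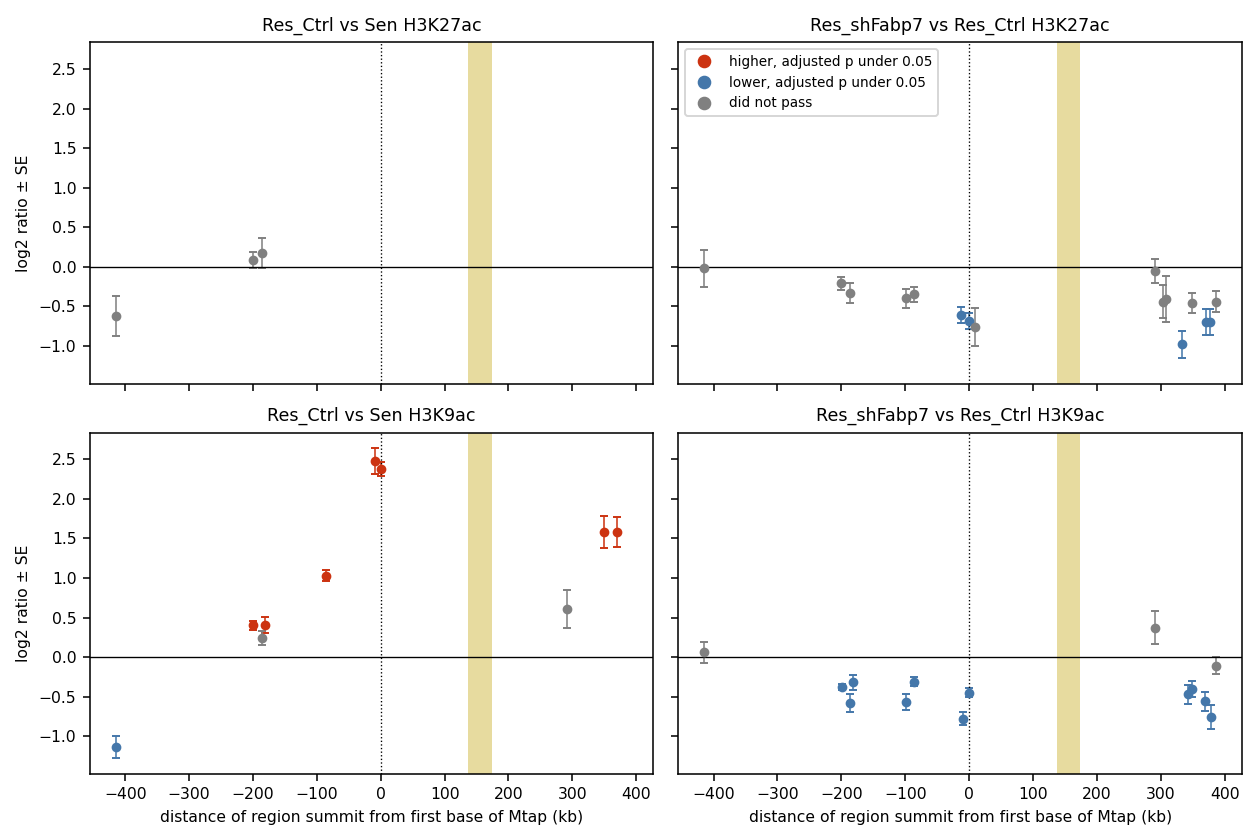
Log2 ratio ± SE of each tested region by its distance from the first base of Mtap (kb), for Res_Ctrl against Sen at left and Res_shFabp7 against Res_Ctrl at right. The dotted line is the first base of Mtap and the shaded band spans Cdkn2a and Cdkn2b, where no region could be tested. In the H3K9ac panels the points beside Mtap reach 2.48 at left, and 11 points lie below 0 with an adjusted p under 0.05 at right.

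Summed over the segment, scaled H3K27ac tags were 1974 ± 195 for Res_Ctrl and 1441 ± 151 for Res_shFabp7, against 838 ± 280 for Sen and 91.6 ± 10.5 for Res (SD, n = 3). The H3K9ac sums of Sen, Res, Res_Ctrl and Res_shFabp7, in this order, were 1068 ± 94.0, 64.4 ± 2.97, 1760 ± 80.4 and 1284 ± 35.2. The Res values come from peaks at both edges for H3K27ac and from the peak at Tusc1 alone for H3K9ac. Res_Ctrl was 2.36 and 1.65 times Sen, and Res_shFabp7 was 0.730 and 0.729 times Res_Ctrl, with no overlap in any of the 4. Each gave a two-sided exact permutation p of 0.1 (0.1 adjusted over the 4), the smallest that 3 against 3 libraries allow. Of these ratios 3 of 4 turned direction with unscaled tags or with tags per called kb, as given in the closing section.

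Likeness to Mtap was measured as the number of libraries, of 24, in which a gene and Mtap both had or both lacked a peak. No gene outside the segment agreed in all 24 (0 genes), and 10 agreed in at least 23 of 24. The 5 of these with the most H3K27ac were Slco4a1, an organic anion transporter, Fndc10, Onecut3, a transcription factor, Angel1 and Izumo1. Slco4a1 and Fndc10 differed from Mtap in 1 H3K27ac library of Sen, Onecut3 and Izumo1 in 1 of Res, and Angel1 in 1 H3K9ac library of Res. They lie on chromosomes 2, 4, 10, 12 and 7. Genes of a nearly identical pattern of peaks thus lay on other chromosomes as well.

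The pathways in which the members act were compared between Res and Sen outside the segment, each gene by its tested region with the highest mean. The directions below are of tags summed over peaks and depend on this scale. Per called base 13.6% of the called H3K27ac regions and 98% of the called H3K9ac regions were higher in Res, in place of 52.7% and 51.6%, and the median of all genes moved to -0.12 and 0.25. Of 18 genes of the Cdk4/6, retinoblastoma and Arf-p53 pathway 16 were tested for H3K27ac, where 1 rose and 2 fell, and 18 for H3K9ac, where 4 rose and 6 fell. Over all genes tested 27.1% passed for H3K27ac and 53.4% for H3K9ac, and this list had 18.8% and 55.6%. Ccnd2, a D-type cyclin that activates Cdk4 and Cdk6, rose most, by 1.83 for H3K9ac (SE 0.12, edgeR adjusted p = 3e-07). Cdkn1a, the p53 target that encodes the kinase inhibitor p21, rose by 0.58 for H3K27ac (adjusted p = 0.019) and by 0.56 for H3K9ac (adjusted p = 2.7e-05). Falls were seen at E2f2, with differences of -0.63 and -0.36 (adjusted p = 0.01 and 0.00087), at Cdk6, of -0.57 for H3K9ac (adjusted p = 1.7e-05), and at Cdkn1b, of -0.24 for H3K27ac (adjusted p = 0.035).

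Of 16 genes of methionine salvage and polyamine metabolism, 2 of 14 rose and 1 fell for H3K27ac, and 4 of 16 rose and 3 fell for H3K9ac. Adi1, a later enzyme of the salvage pathway that Mtap starts, rose by 0.50 and 0.43 (edgeR adjusted p = 0.013 and 0.0022). Mat2b, the regulatory subunit of methionine adenosyltransferase, rose by 0.46 and 0.33 (adjusted p = 0.0087 and 0.00036), while Mat2a, its catalytic partner, fell, with differences of -0.47 and -0.36 (adjusted p = 0.0059 and 0.00054). Amd1, which makes the aminopropyl donor for polyamines, fell by 0.42 for H3K9ac (adjusted p = 9.2e-05). The list's medians were -0.05 and -0.03, near those of all genes, -0.03 and -0.02. Of the list 21.4% and 43.8% passed, against 27.1% and 53.4% of all genes tested.

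Of 18 genes of type I interferon induction and signalling, 17 of them matched by symbol, 8 were tested for H3K27ac, with 1 higher and 1 lower, and 11 for H3K9ac, with 3 higher and 4 lower. These were 25% and 63.6% of the genes tested, against 27.1% and 53.4% over all genes. The region that Isg15, an interferon-stimulated gene, shares with Agrn had the largest fall, with a difference of -2.28 for H3K27ac (SE 0.11, edgeR adjusted p = 1.4e-05) and -1.73 for H3K9ac (SE 0.07, adjusted p = 1.2e-08), and cannot be given to 1 of the 2 genes. Jak1, a kinase of the interferon receptor, rose by 1.27 for H3K9ac (adjusted p = 5e-06), and Ifih1, a sensor of double-stranded RNA, by 0.61 (adjusted p = 0.016). Tlr3, an endosomal sensor, rose by 0.63 for H3K27ac (adjusted p = 0.016), and Ikbke fell by 0.69 for H3K9ac (adjusted p = 0.0015).

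Among 14 super elongation complex partners of Mllt3, 3 of 13 rose and 0 fell for H3K27ac, and 2 rose and 3 fell for H3K9ac. These were 23.1% and 38.5% of the genes tested, against 27.1% and 53.4% over all genes. Aff1 and Aff4, the scaffolds of the complex, rose for both marks, Aff1 by 0.52 and 0.58 and Aff4 by 0.39 and 0.57 (edgeR adjusted p from 0.011 to 1.3e-05). Cdk9, its kinase, and Mllt10 fell, with differences of -0.30 and -0.21, for H3K9ac (adjusted p = 0.016 and 0.006). Of 12 genes of very long chain fatty acid elongation 9 were tested. For H3K27ac 0 passed by edgeR, with 2 at an unadjusted p under 0.05 and 0 by DESeq2, and for H3K9ac 7 fell and 1 rose. That was 0% and 88.9%, against 27.1% and 53.4% over all genes. For H3K9ac 2706 of all 10529 genes fell and 2918 rose. Hacd2, a paralog of Hacd4, and the elongase gene Elovl1 fell, with differences of -0.52 and -0.56 (adjusted p = 0.00041 and 0.00099), and Elovl6 rose by 0.18 (adjusted p = 0.019). The list's median H3K9ac difference was -0.33 against -0.02 over all genes, and it turned to 0.08 against 0.25 per called base. There 0 of the 9 genes fell by edgeR and 3 rose, where 95 of all 10529 genes fell and 5444 rose.

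Across the 5 lists the rises in H3K9ac passed on both scales for the genes named, while the falls passed only for tags summed over peaks. The scale per called base favours rises for H3K9ac. Of all 10529 genes tested 5444 were called higher on it and 95 lower, with a median of 0.25. For H3K27ac 28 of 9806 genes were higher and 155 lower. Passing or failing on that scale therefore does not set the named rises apart from the falls. Per called base the H3K9ac differences were 1.60 for Ccnd2, 0.60 for Cdkn1a, 1.06 for Jak1, 0.69 for Ifih1, 0.66 for Aff1 and 0.70 for Aff4, each above the median of all genes and past the threshold (edgeR adjusted p from 5.3e-20 to 4.3e-06 for the last 5 and 4.9e-30 for Ccnd2). Adi1, Mat2b and Elovl6 also passed, at 0.53, 0.41 and 0.34. Of the 9 named H3K9ac falls outside the Isg15 region 0 passed as a fall on that scale: E2f2 turned to 0.34 (adjusted p = 0.0073), Cdk6 was at 0.01, Mat2a at 0.03, Amd1 at 0.11, Ikbke at 0.02, Cdk9 at 0.07, Mllt10 at 0.05, Elovl1 at 0.08 and Hacd2 at -0.04. The Isg15 and Agrn region was at -0.23 for H3K9ac (adjusted p = 0.1) and kept its H3K27ac fall, at -0.76 (adjusted p = 0.0024). Of the other 9 named H3K27ac differences 0 passed per called base, and all 9 kept their sign.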

How the data were processed

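H3K27ac and H3K9ac were mapped in 24 libraries. The submitters' processing notes name Bowtie 1.1.2 for alignment, MACS 1.4.2 for peaks and the build mm10. Each deposited list belongs to 1 library and gives, per peak, a count of tags, a score (10 times the negative log10 of p) and a fold over background, all made by the authors. The use of inputs, duplicates and excluded regions is not given in the sources used here, and a region without a call has no count, so it was entered as 0.

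The members, the lists and the tests were chosen with earlier results of these data known. Besides the members, the text names the other segment genes with a peak, the nearest flanking genes with one, up to 2 list genes per direction and mark with the largest changes that passed, and the 5 genes most like Mtap. Non-coding genes were named after their values were seen. The RefSeq annotation of GRCm38.p6 gave genes, promoters and microRNAs.

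Peaks of the 6 libraries compared that shared 1 base were merged, tags summed, and regions with a peak in all 6 tested with edgeR 4.0.16 (quasi-likelihood, TMM, Benjamini-Hochberg, threshold 0.05) in R 4.3.3. This filter leaves out regions that 1 group lacks. Levels per 1000000 tags in peaks were compared by exact permutation, two-sided. On simulated counts for each comparison 85 to 100% of regions changed by 1 on the log2 scale, and 100% of those changed by 1.5, were recovered, with 2.93 to 11.5% of calls false. Tags are reads, not molecules. Depth sets their counting error and also limits which peaks are called, as given in the closing section.

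In Res_shFabp7 against Res_Ctrl for H3K27ac the deviations of same-numbered libraries correlated at 0.36, 0.13 and 0.234. The value of pair 2 was below the highest between different numbers, 0.155. The labels tie no number to a batch or day. Alternatives were DESeq2 1.42.0, its size factors, a filter on mean tags, a replicate block, a stricter score, wider merging, single libraries left out and, chosen after seeing the data, tags per called base, also together with Sen replicate 1 of H3K27ac left out.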

Additional observations from a re-analysis of the deposited data

How the results depend on the processing

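Depth limits these lists at the calling threshold, so a count of 0 in a shallow library such as Sen replicate 1 of H3K27ac is no measure of absence. The cause of each change below was not tested, except that leaving out a library leaves fewer samples. Members with an H3K27ac peak in all Sen and no Res library were 2, against 1 with a score of at least 100 and 2 to 4 without 1 replicate (4 without Sen replicate 1). The same count for H3K9ac was 5 under every alternative run.

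Regions called in Res against Sen went from 3808 to 367 for H3K27ac with tags per called base, with 13.6% in place of 52.7% of them higher in Res, and for H3K9ac 98% in place of 51.6% were higher. In Res_Ctrl against Sen, H3K27ac went from 2240 to 34 with tags per called base and was 1251 to 3436 without 1 replicate (lowest without Res_Ctrl replicate 3, 1408 without Res_Ctrl replicate 2, 1427 without Sen replicate 3, highest without Sen replicate 1). For H3K9ac in that comparison 99.7% in place of 55.6% of called regions were higher with tags per called base. In Res_shFabp7 against Res_Ctrl, H3K27ac went from 626 to 950 by DESeq2, 1441 with the replicate block and 7294 with tags per called base (1 higher and 7293 lower), and was 164 to 871 without 1 replicate. H3K9ac went from 895 to 2932 with tags per called base (2 higher and 2930 lower), and was 322 to 1120 without 1 replicate.

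Of the segment regions called with Tusc1 included, 8 of 9 for H3K9ac in Res_Ctrl against Sen passed in every alternative that gave a value, as did 1 of 5 for H3K27ac (the Mtap promoter) and 5 of 11 for H3K9ac in Res_shFabp7 against Res_Ctrl. A Gm12610 region (start 89426121) turned to -0.35 (edgeR adjusted p = 0.039) with tags per called base, from 0.37. Summed segment tags kept their direction with single replicates left out: 0.98 to 1.42 and 0.65 to 0.77 on the log2 scale for Res_Ctrl over Sen (H3K27ac, H3K9ac), and -0.54 to -0.38 and -0.47 to -0.42 for Res_shFabp7 over Res_Ctrl. They turned for H3K9ac of Res_Ctrl over Sen, from 0.72 to -0.62 unscaled and -0.79 per called kb. For Res_shFabp7 over Res_Ctrl they turned from -0.45 to 0.40 and 0.20 for H3K27ac and from -0.46 to 0.32 and 0.26 for H3K9ac.

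In the other comparisons the correlations of the deviations of same-numbered replicates were not all above 0.1. They were 0.323, 0.093 and 0.188 in Res_Ctrl against Sen for H3K27ac. With the replicate block the other comparisons called 4204 and 5923 regions in Res against Sen (H3K27ac, H3K9ac), 2849 and 3643 in Res_Ctrl against Sen, and 756 for H3K9ac in Res_shFabp7 against Res_Ctrl.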
